A study of Mus musculus with 8 samples.

Results

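The genes described are 9 enzymes and enzyme subunits of the mitochondrial tricarboxylic acid (TCA) cycle, Cs, Idh3a, Idh3b, Idh3g, Ogdh, Suclg1, Suclg2, Fh1 and Mdh2. They were taken by gene name from the 24547 genes of the deposited table, and all 9 passed the filter on low counts. Expression was measured by RNA sequencing of whole liver from ICR mice, an outbred stock. The treated group received a high-dose decoction of Psoraleae Fructus, the fruit of Psoralea corylifolia, into the stomach for 30 days, and the control group received saline by the same route. Each group has 4 libraries, and the labels give no genotype, age, sex, dose by mass, hour of collection or batch. The labels do not say whether each library came from a separate mouse, and the p-values below therefore rest only on how much these libraries spread. In whole tissue, fewer cells of a type and less RNA per cell cannot be told apart.

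The TCA cycle oxidises the acetyl group of acetyl-CoA to carbon dioxide in the mitochondrial matrix and passes the electrons to the respiratory chain as NADH and FADH2. Citrate synthase (Cs) starts a turn, the NAD-dependent isocitrate dehydrogenase (Idh3a, Idh3b and Idh3g) and the oxoglutarate dehydrogenase complex (Ogdh) carry out oxidative decarboxylations, and succinyl-CoA ligase (Suclg1 with Suclg2 or Sucla2), fumarase (Fh1) and malate dehydrogenase (Mdh2) lead back to oxaloacetate. In liver the cycle also supplies carbon for gluconeogenesis, fatty acid synthesis and amino acid metabolism, so that its intermediates are steadily drained and refilled.

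Library totals ran from 15864399 to 20159132 counts, and a member gene held between 489 and 6019 counts in a library. Hepatocyte markers were present throughout, with Alb, the albumin gene, at 116400 ± 21780 CPM in controls and 117600 ± 8534 CPM in treated libraries (SD, n = 4 per group). Of 10 hepatocyte markers edgeR called 0 (9.21% of all tested genes). Their log2 fold changes, treated minus control, ran from -0.42 for Tat to 0.54 for Cyp2e1. CPM is the count scaled to a common library size with TMM factors, which correct for differences in RNA composition. By edgeR, which called 3.75% of all tested genes lower, 3 of 9 macrophage markers and 3 of 5 tested T and NK cell markers (8 listed) fell in treated libraries, as did 2 of 8 of sinusoidal endothelium and 1 of 8 of stellate cells. DESeq2 called 6 macrophage, 4 T and NK cell, 2 endothelial and 2 stellate markers lower (8.19% of all tested genes), and limma-voom 6, 3, 2 and 3 (7.25%). On log2(FPKM + 1) limma called 0 of 8 tested macrophage markers lower, 2 of 3 of T and NK cells, 1 of 8 of endothelium and 1 of 7 of stellate cells (2.28%). Summed macrophage marker levels ran from 422 to 966 CPM in controls, with the highest value in control 2, and from 232 to 517.5 CPM in treated libraries. The corresponding ranges were 9.71 to 33.2 against 5.21 to 7.21 CPM for T and NK cells, 334 to 455 against 222 to 371.5 CPM for endothelium and 339 to 456 against 246 to 364.5 CPM for stellate cells. Of the other listed types, edgeR called 0 of 4 tested B cell, 0 of 2 neutrophil and 0 of 3 cholangiocyte markers. It also called 0 of 4 erythroid and 0 of 2 gut, pancreas and muscle markers (9.21% of all tested genes). DESeq2 and limma-voom each called 1 erythroid marker higher (9.04% and 9.28% of all). None of the macrophage, endothelial or stellate markers was at 0 in all libraries, and their part in the results below was not tested. Fold changes over all tested genes also ran with the gene length used for FPKM. The median log2 change went from 0.29 in the shortest of 10 bins to -0.18 in the longest. With GC content it went from -0.23 in the lowest bin to 0.27 in the highest.

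All 9 genes were well expressed, with Fh1, Suclg2 and Suclg1 at the top and Idh3a at the bottom. On the FPKM scale, which divides by gene length and allows levels of different genes to be compared, Fh1 stood at 57.9 ± 14.3 (SD over 8 libraries), Suclg2 at 56.8 ± 8.43, Suclg1 at 51.3 ± 12.2 and Idh3b at 45.6 ± 8.34. Mdh2 followed at 41.2 ± 3.51 FPKM, Ogdh at 26.6 ± 3.39, Idh3g at 20.04 ± 2.92, Cs at 17.2 ± 3.33 and Idh3a at 7.56 ± 1.14. Fh1 exceeded 94.2% of tested genes by its mean FPKM, and Idh3a exceeded 70.2%. Neighbours at the top of this order did not differ beyond their spread, since Fh1 lay above Suclg2 in 2 of 8 libraries, Suclg2 above Suclg1 in 5, Suclg1 above Idh3b in 6 and Idh3b above Mdh2 in 6. Mdh2 lay above Ogdh in 8 of 8 libraries and Cs above Idh3a in 8 of 8. The gene lengths behind these FPKM equal the union of all annotated exons of each of the 9 genes, so a gene with long rarely used exons is set lower by this scale.

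**Figure D1:**
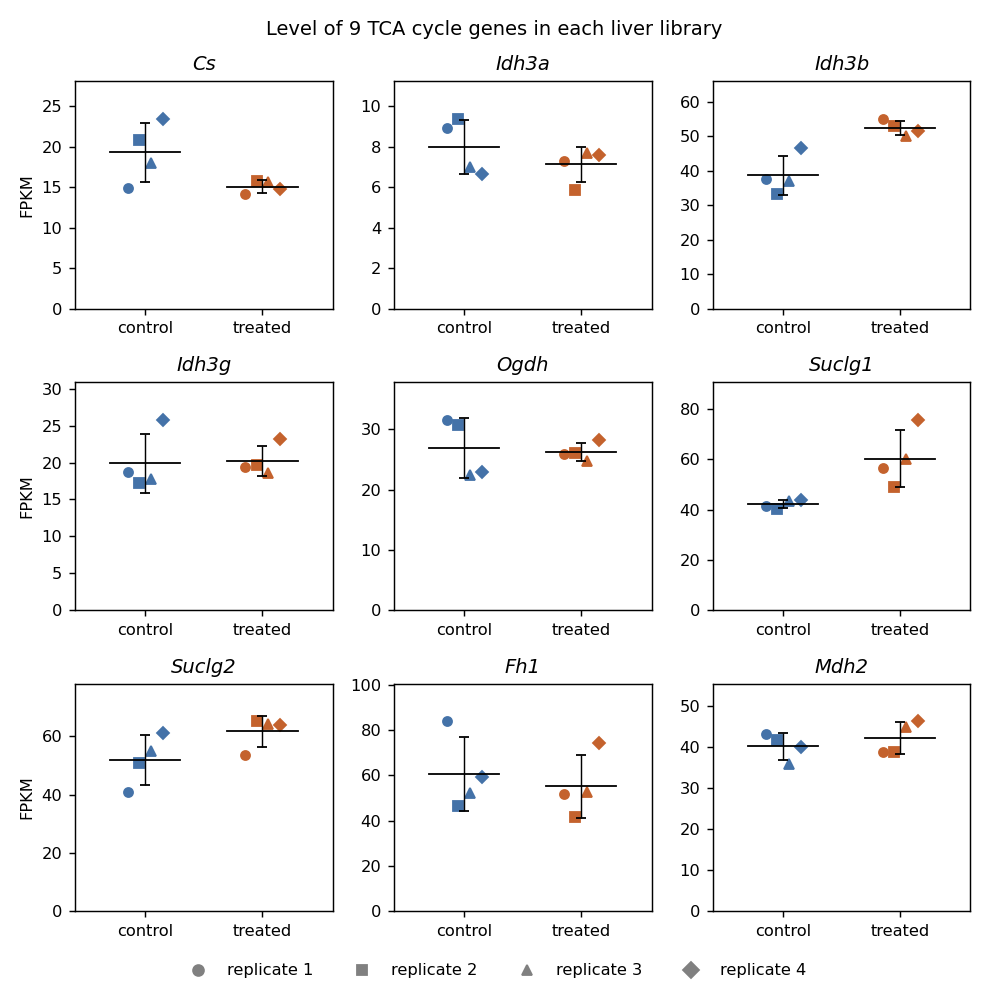
FPKM of each of the 9 genes (vertical axes, from 0) in 4 control and 4 treated libraries; points are libraries, horizontal lines group means and bars the SD. Only Idh3b and Suclg1 have every treated library above every control, and Fh1 ranges from 46.7 to 83.8 FPKM within the controls.

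None of the 9 genes was called after treatment with edgeR's quasi-likelihood test at a Benjamini-Hochberg adjusted p under 0.05 over all 12861 tested genes, where 9.21% of genes were called, 5.46% higher and 3.75% lower. At an unadjusted p under 0.05 there were 3 of 9 (Cs, Idh3b and Suclg1), against 29.4% of all tested genes. DESeq2 called 2 of 9, Idh3b and Suclg1, both higher, where it called 9.04% of all genes higher, and limma-voom with quality weights called the same 2 genes higher, where it called 9.28% higher. With limma on log2(FPKM + 1) 0 of 9 were called, where 5.21% of all genes were called higher and 2.28% lower. Groups did not overlap in CPM for 2 of 9 genes, again Idh3b and Suclg1, against 18.9% of all tested genes. The fold change was above 0 for 6 genes and below 0 for 3, with a median of 0.06 on the log2 scale (treated minus control) beside -0.04 over all tested genes, of which 46.7% lay above 0. Over the alternative settings the number above 0 ran from 4, without treated library 4, to 8, without treated library 2. The 95% confidence intervals show what range of change the libraries allow.

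**Figure D2:**
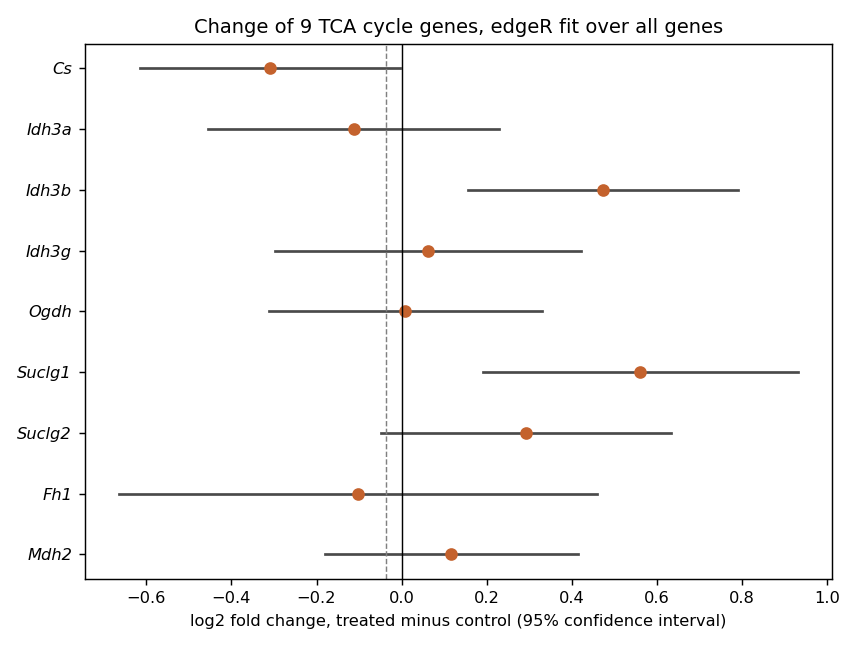
Log2 fold change of each gene, treated minus control (horizontal axis), as points with 95% confidence intervals from the edgeR fit; the solid line marks 0 and the dashed line the median of all tested genes, -0.04. The intervals of Idh3b and Suclg1 lie above 0, that of Cs lies below it, from -0.615 to -0.004, and those of the other 6 genes include 0.

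Cs, citrate synthase, joins acetyl-CoA to oxaloacetate and is often assayed as a measure of mitochondrial content (chromosome 10, 128337734 to 128362479, GRCm38). Its level was 90.3, 109, 103.9 and 136 CPM in controls 1 to 4 and 82.4, 87.8, 96.4 and 88.0 CPM in treated libraries 1 to 4. Control 4 was the highest library, 3 of 4 treated libraries lay below every control, and treated library 3 lay above control 1. The log2 fold change was -0.31 (SE 0.14, 95% confidence interval -0.615 to -0.004, unadjusted p = 0.0476, edgeR adjusted p = 0.166). Without control 4 it was -0.19 (adjusted p = 0.284), and after adjusting for gene length and GC -0.20 (adjusted p = 0.422).

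The NAD-dependent isocitrate dehydrogenase, which turns isocitrate into oxoglutarate under control by ADP, ATP and NADH, is built from a catalytic alpha subunit (Idh3a) and the beta and gamma subunits (Idh3b and Idh3g). Its beta subunit stood higher in every treated library than in every control, while the alpha and gamma subunits overlapped between groups.

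Idh3b (chromosome 2, 130279309 to 130284547) was at 134.5, 103.1, 127 and 161 CPM in controls 1 to 4 and at 189.9, 175, 183 and 181.5 CPM in treated libraries 1 to 4. The lowest treated library lay above the highest control, which was control 4, and the treated libraries were close together (coefficient of variation 3.39%, against 18.1% in controls). On the log2 scale the fold change was 0.47 (SE 0.14, 95% confidence interval 0.16 to 0.79), a fold of 1.39, with an edgeR adjusted p of 0.065. Without control 4 it was 0.59 and passed the test (adjusted p = 0.0172, where 9.35% of all genes were called higher). Over the 22 alternative settings the log2 fold change of Idh3b ran from 0.38 to 0.59 and it was called in 3. Idh3b shares 5 exon bases with Nop56 on the opposite strand, a gene with 2618 counts over all libraries, and the library kit does not mark strand.

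Idh3a (chromosome 9, 54586334 to 54604661), the subunit with the active site, was at 47.2, 43.0, 35.3 and 34.1 CPM in controls and at 37.4, 28.7, 41.8 and 39.7 CPM in treated libraries. Treated library 2 was the lowest and control 1 the highest, and the groups overlapped. Treated minus control, the log2 difference was -0.11 (SE 0.15, 95% confidence interval -0.46 to 0.23, edgeR adjusted p = 0.658). For Idh3g (chromosome X, 73778963 to 73786897), the subunit that takes part in allosteric activation, controls were at 52.9, 42.1, 47.8 and 69.9 CPM and treated libraries at 52.8, 51.2, 53.5 and 64.5 CPM. Every treated value lay inside the range of the controls, and control 4 was the highest library. The log2 fold change of Idh3g was 0.06 (SE 0.16, 95% confidence interval -0.30 to 0.42, edgeR adjusted p = 0.835).

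The sequences upstream of Idh3b and Idh3g are printed because the ratio of these subunits separated the groups, as given below. They are taken from the 250 bases before the RefSeq transcription start (GRCm38.p6), keeping the part outside all annotated exons, 5′ to 3′ on the gene's own strand, with matches to the motifs named below in capitals. The Idh3b stretch is chr2:130284548-130284701 on the minus strand (154 bases, 37.0% GC), and the Idh3g stretch is chrX:73786898-73787027 on the minus strand (130 bases, 57.7% GC), which begins next to an exon of Ssr4 on the opposite strand.
Idh3b: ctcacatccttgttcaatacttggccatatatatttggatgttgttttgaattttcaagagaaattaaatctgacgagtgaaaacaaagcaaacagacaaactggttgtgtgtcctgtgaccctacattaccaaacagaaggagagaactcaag
Idh3g: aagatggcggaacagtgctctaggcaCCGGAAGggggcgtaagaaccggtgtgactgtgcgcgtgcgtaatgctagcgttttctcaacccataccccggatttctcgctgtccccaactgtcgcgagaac

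Motifs known from promoters of nuclear genes for mitochondrial proteins were searched on both strands: AAGGTCA, the half-site of oestrogen-related receptors such as Esrra, CCGGAAG, an ETS site as bound by GABPA, and an NRF1-type site, GCGC and GCGC parted by any 2 bases. No motif holds the letters of another. In the 250 bases before the start 4.05% of 27025 RefSeq promoters hold the receptor half-site, 7.05% the ETS site and 5.09% the NRF1-type site. Such stretches were found for 8 of the 9 genes, with 6 listed for Ogdh. The ETS letters occur in 1 of these 8, Idh3g, beginning 104 bases before the start, and the other 2 motifs occur in 0 of 8, whichever start of Ogdh is taken. These matches describe the letters in this window only. For some Ogdh starts, the first listed among them, the bases just after the start were not found unbroken in an annotated transcript of Ogdh.

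Ogdh, the subunit of the oxoglutarate dehydrogenase complex that decarboxylates oxoglutarate (chromosome 11, 6291633 to 6356642), was at 179.7, 152, 122 and 125.5 CPM in controls and at 143, 137, 144 and 159 CPM in treated libraries. Every treated value lay between the lowest and the highest control, and control 1 was the highest of all. The log2 fold change was 0.01 (SE 0.14, 95% confidence interval -0.31 to 0.33, edgeR adjusted p = 0.975). The sign turned in 9 of 22 alternative settings, so no direction is given.

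Succinyl-CoA ligase cleaves succinyl-CoA and captures its energy as a nucleoside triphosphate. Its alpha subunit, Suclg1, pairs with Suclg2 in the GTP-forming enzyme or with Sucla2 in the ATP-forming enzyme. Suclg1 had the largest fold change of the 9 genes with all libraries, and Suclg2 stood higher in the treated mean with overlap.

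Suclg1 (chromosome 6, 73248382 to 73276911) was at 199.6, 168, 199.3 and 203.5 CPM in controls 1 to 4 and at 262.5, 218, 297 and 359.5 CPM in treated libraries 1 to 4. Controls were close together apart from a low control 2, and all 4 treated libraries lay above them, with treated library 4 the highest and treated library 2 the nearest to the controls. On the log2 scale the fold change was 0.56 (SE 0.17, 95% confidence interval 0.19 to 0.93), a fold of 1.48, with an edgeR adjusted p of 0.0608. Without control 4 the log2 fold change was 0.59 and passed the test (adjusted p = 0.0499), and without treated library 4 it was 0.43 (adjusted p = 0.142). Over the 22 alternative settings it ran from 0.43 to 0.71 and was called in 4, among them the fit with a replicate block and the length and GC adjustment together (adjusted p = 0.0471, where 2.95% of all genes were called higher).

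Suclg2 (chromosome 6, 95473009 to 95718800) was at 197, 212.5, 253 and 285 CPM in controls and at 250, 289, 316.5 and 304 CPM in treated libraries. Treated libraries 2, 3 and 4 lay above every control, and treated library 1 lay below controls 3 and 4. Treated minus control, the log2 difference was 0.29 (SE 0.15, 95% confidence interval -0.05 to 0.63, edgeR adjusted p = 0.233). After the adjustment for gene length and GC the value for Suclg2 was 0.46 (adjusted p = 0.111), and without control 4 it was 0.40 (adjusted p = 0.0888).

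The stretches upstream of Suclg1 (chr6:73248255-73248381, plus strand, 127 bases, 55.9% GC) and Suclg2 (chr6:95718847-95719096, minus strand, 250 bases, 64.4% GC) are shown as partners of a single enzyme whose values both stood higher in the treated mean. They were taken and marked as for Idh3b, and hold none of the motifs searched. For Suclg2 the RefSeq start lies outside the annotated gene, which reaches to 95718800. The bases just after that start were not found unbroken in an annotated transcript of Suclg2.
Suclg1: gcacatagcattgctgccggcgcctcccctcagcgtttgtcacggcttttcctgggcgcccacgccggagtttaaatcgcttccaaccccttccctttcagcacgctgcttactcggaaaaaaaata
Suclg2: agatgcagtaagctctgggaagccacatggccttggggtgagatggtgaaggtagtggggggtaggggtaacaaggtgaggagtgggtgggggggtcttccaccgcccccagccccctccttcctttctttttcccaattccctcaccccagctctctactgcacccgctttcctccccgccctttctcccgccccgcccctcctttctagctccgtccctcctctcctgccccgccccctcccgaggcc

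Fh1, fumarase, adds water to fumarate to give malate and also clears fumarate from the urea cycle in the cytosol (chromosome 1, 175600374 to 175625635). It was at 297, 143, 177 and 202.5 CPM in controls and at 177, 136, 190.4 and 260 CPM in treated libraries. It varied more within groups than any other member, with a coefficient of variation of 32.2% in controls and 27.0% in treated libraries, and control 1 and treated library 4 were the highest. The log2 fold change was -0.10 (SE 0.25, 95% confidence interval -0.67 to 0.46, edgeR adjusted p = 0.821), and it was 0.13 without control 1 and 0.05 without treated library 2. Kmo lies over part of Fh1 on the opposite strand, with no exon base in common.

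Mdh2, mitochondrial malate dehydrogenase, regenerates oxaloacetate and forms the matrix side of the malate-aspartate shuttle (chromosome 5, 135778480 to 135790398). Controls were at 161, 134, 127 and 143 CPM and treated libraries at 139.5, 133, 171 and 169.5 CPM. Treated libraries 3 and 4 lay above every control, and treated libraries 1 and 2 lay within the range of the controls. On the log2 scale the fold change was 0.12 (SE 0.13, 95% confidence interval -0.18 to 0.41, edgeR adjusted p = 0.591). With 1 library left out it ran from 0.062, without treated library 3, to 0.20, without treated library 2.

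Ratios of FPKM between subunits of an enzyme do not depend on how libraries are scaled, and 5 were compared between groups by exact two-sided permutation over 70 assignments, with a smallest possible p of 0.0286 and Benjamini-Hochberg adjustment over the 5. The ratio Idh3b/Idh3g was 2.01, 1.93, 2.10 and 1.82 in controls 1 to 4 and 2.84, 2.70, 2.70 and 2.22 in treated libraries 1 to 4. All treated ratios lay above all control ratios, treated library 4 being the nearest. The difference of the mean log2 ratio was 0.41 (control SD 0.088, treated SD 0.16, n = 4 per group, exact permutation p = 0.0286, adjusted p = 0.143), so that it did not pass after adjustment.

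The ratio Idh3a/Idh3b was 0.24, 0.28, 0.19 and 0.14 in controls and 0.13, 0.11, 0.15 and 0.15 in treated libraries, a difference of the mean log2 ratio of -0.60 (exact permutation p = 0.0857, adjusted p = 0.214). Control 4 lay among the treated libraries. For Idh3a/Idh3g the difference was -0.20 (exact permutation p = 0.486, adjusted p = 0.486). Suclg1/Suclg2 differed by 0.24 (exact permutation p = 0.286, adjusted p = 0.464), from a geometric mean ratio of 0.82 in controls to 0.97 in treated libraries. Suclg2/Sucla2, the GTP-forming against the ATP-forming beta subunit, was 1.49 in controls and 1.64 in treated libraries (difference of log2 ratio 0.14, exact permutation p = 0.371, adjusted p = 0.464). In these 4 ratios the groups overlapped, and no ratio passed after adjustment.

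**Figure D3:**
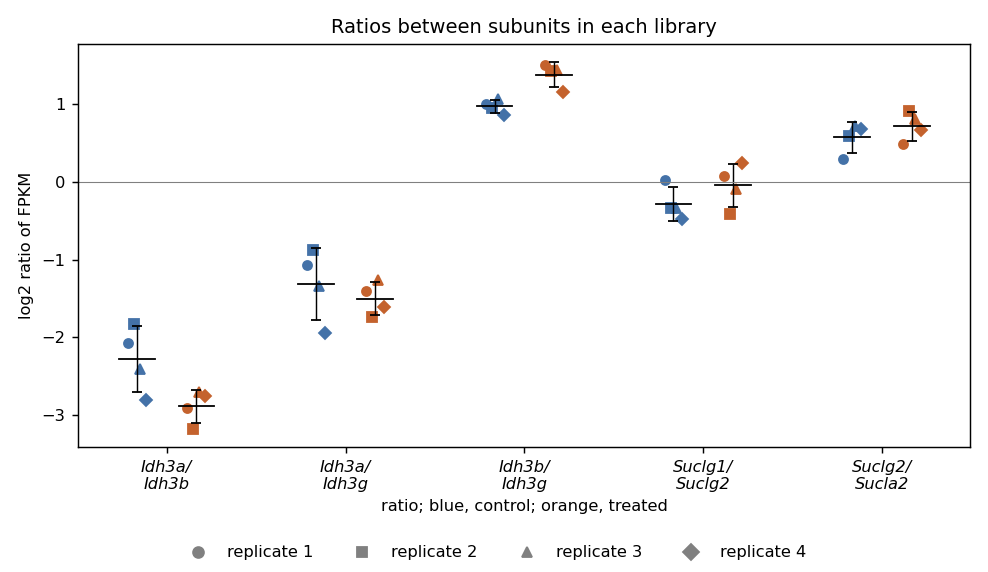
Log2 ratio of FPKM (vertical axis) between subunit genes in 4 control (blue) and 4 treated (orange) libraries; points are libraries, horizontal lines group means and bars the SD. Only Idh3b/Idh3g separates the groups, at 0.86 to 1.07 in controls and 1.15 to 1.51 in treated libraries.

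Deviations of the 9 genes were of mixed sign within each of the 8 libraries. Of their 36 pairs, 23 had a positive Pearson correlation of log2 CPM over the 8 libraries (median 0.26), and 25 had a positive correlation of deviations from group means (median 0.42), as a description of libraries that share depth and composition. Idh3b and Idh3g deviated together within groups (0.86), as did Cs and Suclg2 (0.84) and Fh1 and Mdh2 (0.83). Ogdh went against Suclg2 (-0.68) and against Cs (-0.61). By the mean deviation from each gene's own average, treated libraries 4 and 3 were highest (0.23 and 0.14 on the log2 scale) and controls 2 and 3 lowest (-0.20 and -0.14), with treated library 2 at -0.12 and controls 1 and 4 at 0.05 and 0.06. Libraries of both groups thus lay on either side of 0. For 7 of the 9 genes the coefficient of variation was smaller in treated than in control libraries, as for 67.8% of all tested genes.

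**Figure D4:**
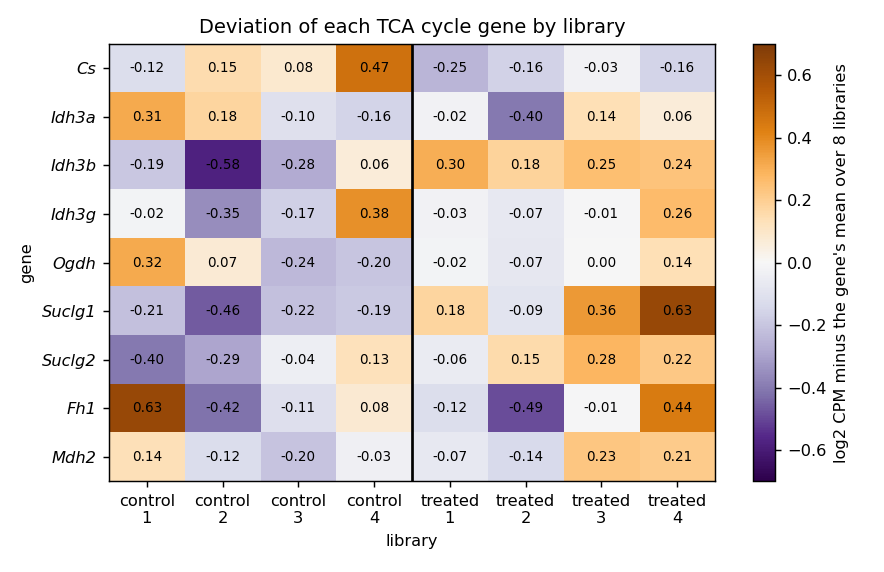
Log2 CPM of each gene minus its mean over 8 libraries (colour and printed value), genes in rows and libraries in columns, with the line between control and treated libraries. Idh3b lies between -0.58 and 0.06 in controls and between 0.18 and 0.30 after treatment, whereas Ogdh and Fh1 are highest in control 1.

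Among 5372 other genes averaging 20 CPM or more, those most like the mean standardised profile of the 9 genes over the 8 libraries were Gorasp1 (Pearson r 0.93), Atp5h (0.93), Txn2 (0.93), Hgd (0.92) and Ubxn1 (0.92), given as a description. Atp5h encodes a subunit of ATP synthase, Txn2 the mitochondrial thioredoxin and Hgd an enzyme of tyrosine breakdown. None of these 5 was called.

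The remaining enzymes of the cycle were described from a list of 9 genes, of which 2 rose (Idh2 and Sdhd) and none fell, beside 5.46% of all tested genes called higher. Their median log2 fold change was 0.16, with 8 of 9 above 0. Idh2, the NADP-dependent isocitrate dehydrogenase that serves mitochondrial NADPH supply, was at 94.4, 86.7, 93.2 and 90.2 CPM in controls and rose to 162, 134, 163 and 135.5 CPM in treated libraries (log2 0.70, SE 0.11, edgeR adjusted p = 0.00942). Sdhd, a membrane anchor of succinate dehydrogenase, rose from 143.5, 119, 138 and 152 CPM to 275.5, 216, 256 and 273 CPM (log2 0.89, SE 0.13, adjusted p = 0.00799). Every treated library lay above every control for both genes, and both were called in all 22 alternative settings. After the adjustment for gene length and GC the log2 fold change was 0.56 for Idh2 (edgeR adjusted p = 0.0377). For Sdhd it was 0.775 (edgeR adjusted p = 0.0179). The flavoprotein subunit Sdha stood at 88.8 ± 13.5 against 104 ± 5.46 FPKM and was not called, nor were Sdhb and Sdhc. Sucla2, the ATP-forming partner of Suclg1, was at 34.6 ± 2.47 against 37.5 ± 2.35 FPKM. Of 7 of these genes with an upstream stretch, 3 hold the NRF1-type letters (Sdha, Sdhd and Sucla2), beside 5.09% of all RefSeq promoters. The ETS letters occur in 1 of the 7 (Sdhd), beside 7.05%. For Sdhd the bases just after the RefSeq start were not found unbroken in an annotated transcript of the gene.

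Transcripts of the subunits of the pyruvate carrier changed in opposite directions in the edgeR fit with all libraries. Pyruvate entry itself was not measured. The mitochondrial pyruvate carrier is formed by Mpc1 and Mpc2, and Mpc1 fell from 13.1, 11.7, 14.3 and 13.1 CPM in controls to 8.05, 7.16, 9.29 and 9.50 CPM in treated libraries (log2 -0.62, SE 0.14, edgeR adjusted p = 0.0306). Mpc2 rose from 220.4, 165, 159.8 and 199 CPM to 285.5, 251, 351 and 267 CPM (log2 0.63, SE 0.16, adjusted p = 0.039). Groups did not overlap for either subunit. With 1 library left out, each was called in 2 of 8 fits, those without control 1 or control 4, and in the others the adjusted p ran from 0.0513 to 0.087 for Mpc1 and from 0.0593 to 0.117 for Mpc2, with log2 fold changes of -0.68 to -0.53 and 0.53 to 0.73 over the 8. Of 8 tested carriers of cycle substrates edgeR called these 2, 1 higher and 1 lower, beside 5.46% and 3.75% of all tested genes. DESeq2 called 2 higher and 2 lower (9.04% and 8.19% of all), limma-voom 3 and 2 (9.28% and 7.25%) and limma on log2(FPKM + 1) 1 and 2 (5.21% and 2.28%). Of 11 genes of the pyruvate dehydrogenase complex and its regulators none was called by edgeR, with 4 at an unadjusted p under 0.05, where 29.4% of all tested genes lay. DESeq2 called 2 of the 11 lower (8.19% of all genes), limma-voom 2 lower and 1 higher (7.25% and 9.28%), and limma on log2(FPKM + 1) 1 of 9 tested lower (2.28%). Pdhb, its E1 beta subunit, was at 40.3 ± 11.8 against 28.1 ± 2.35 FPKM (adjusted p = 0.126) and Pdk2, a kinase that switches the complex off, at 25.1 ± 5.83 against 31.7 ± 5.18 FPKM (adjusted p = 0.227). Pdk4, a fasting-responsive kinase of the complex chosen after its values were seen, was at 37.6, 106, 86.7 and 6.56 CPM in controls and at 15.8, 6.74, 6.50 and 9.68 CPM in treated libraries, with control 4 inside the treated range (adjusted p = 0.085).

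Of 14 tested genes that fill or drain the cycle, 2 rose and 1 fell by edgeR, beside 5.46% and 3.75% of all tested genes. DESeq2 and limma-voom each called 2 higher and 2 lower (9.04% and 8.19% of all genes with DESeq2, 9.28% and 7.25% with limma-voom). On log2(FPKM + 1) limma called 2 of 13 tested higher and 0 lower (5.21% and 2.28% of all). Mcee, methylmalonyl-CoA epimerase on the route from propionate to succinyl-CoA, rose from 23.8, 19.1, 25.1 and 28.5 CPM to 43.5, 43.5, 54.0 and 42.1 CPM (log2 0.92, SE 0.14, edgeR adjusted p = 0.0088). Pcx, pyruvate carboxylase, which makes oxaloacetate from pyruvate, rose by 0.51 on the log2 scale (SE 0.14, adjusted p = 0.0499), a call that was absent in all 8 fits with 1 library left out (adjusted p from 0.0507 to 0.132). Me2, a mitochondrial malic enzyme, fell from 4.45, 9.10, 5.34 and 3.88 CPM to 3.30, 2.87, 2.19 and 2.27 CPM (log2 -1.10, SE 0.30, adjusted p = 0.0497). Control 2 was highest for Me2. The call of Me2 held in 1 of the 8 fits, that without control 4 (adjusted p = 0.0215), against 0.0504 to 0.14 in the others. After the adjustment for gene length and GC the log2 fold change of Mcee was 0.70 (edgeR adjusted p = 0.0183). That of Pcx was 0.38 (edgeR adjusted p = 0.14) and that of Me2 -1.01 (edgeR adjusted p = 0.0769). The cytosolic counterparts Aco1, Idh1 and Mdh1 were not called by edgeR, DESeq2 or limma, with 0 at an unadjusted p under 0.05, Mdh1 standing at 202 ± 36.2 against 173 ± 19.8 FPKM and Idh1 at 121 ± 58.9 against 104 ± 8.09 FPKM. Dhtkd1, a relative of Ogdh in lysine breakdown, was at 20.4 ± 3.51 against 20.2 ± 6.26 FPKM, and Ogdhl did not pass the filter.

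**Figure D5:**
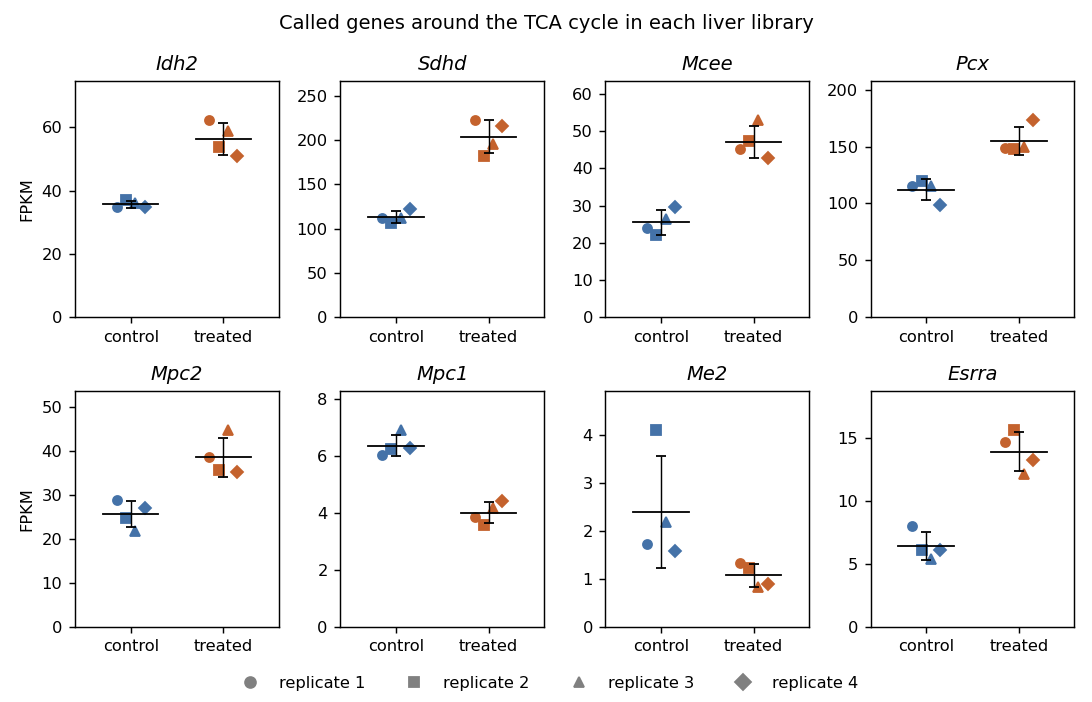
FPKM (vertical axes, from 0) of the 8 called genes around the cycle in 4 control and 4 treated libraries; points are libraries, horizontal lines group means and bars the SD. Mpc1 and Mpc2 stand on opposite sides, 6.02 to 6.90 FPKM in controls against 3.57 to 4.43 for Mpc1 and 21.8 to 28.7 against 35.3 to 44.7 for Mpc2.

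Of 11 regulators of nuclear genes for mitochondria, 1 (Esrra) rose and 0 fell by edgeR, beside 5.46% and 3.75% of all tested genes. DESeq2 (9.04% and 8.19% of all), limma-voom (9.28% and 7.25%) and limma on log2(FPKM + 1) (5.21% and 2.28%) gave the same counts. At an unadjusted edgeR p under 0.05 there were 4 of the 11, beside 29.4% of all tested genes. Esrra, an orphan nuclear receptor that drives genes of oxidative metabolism, rose from 21.3, 14.1, 13.8 and 15.7 CPM in controls to 37.7, 38.2, 33.0 and 34.7 CPM in treated libraries (log2 1.15, SE 0.15, edgeR adjusted p = 0.00557), and was called in all 22 alternative settings. The coactivator Ppargc1a was at 2.97 ± 2.49 against 1.87 ± 0.58 FPKM and the mitochondrial DNA factor Tfam at 11.9 ± 1.22 against 12.5 ± 0.62 FPKM, neither called. Of 12 tested messenger RNAs of the mitochondrial genome edgeR called none, with 5 at an unadjusted p under 0.05 beside 29.4% of all tested genes. DESeq2 called 3 lower (8.19% of all), limma-voom 2 (7.25%) and limma on log2(FPKM + 1) 1 (2.28%). All 12 had a fold change below 0, with a median of -0.43 on the log2 scale, beside 46.7% of all tested genes above 0. The values ran from -0.05 for mt-Co1, the most abundant, to -0.92 for mt-Nd6. Levels were very uneven, from 24790 ± 2950 CPM for mt-Co1 to 2.25 ± 0.91 CPM for mt-Nd4l in controls. The transcript mt-Atp8 had no counts. Each of the 12 weighs the same in the count and median, and the cause of the uneven levels was not tested. The summed level of the mitochondrial messenger RNAs, with mt-Co1 the largest part, was 51900 to 64490 CPM in controls and 39560 to 54680 CPM in treated libraries. That sum was scaled by raw library totals alone, without TMM factors.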

How the data were processed

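The authors deposited raw read counts and FPKM values per gene for 8 liver libraries, per the file headers. Build GRCm38, DESeq2 1.32.0, HTSeq 0.13.5 and HISAT2 are named in the submitters' processing notes without a role. The sources used here give no annotation release or strand setting. Poly-A RNA libraries were made with a NEBNext Ultra kit, per the labels' protocols. The deposited FPKM equal the count divided by a gene length and the library total, as checked on the values. Annotation and GC content were taken from GENCODE M21 (24540 of 24547 identifiers matched), and upstream sequences from RefSeq on GRCm38.p6.

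Counts were tested in R 4.3.3 with edgeR 4.0.16: filterByExpr (minimum count 10, total 15), which left 12861 genes, TMM factors, robust quasi-likelihood F test of treated against control, and Benjamini-Hochberg adjustment, called under 0.05. Standard errors were derived from the F statistic. The step was tested on simulated counts. Ratios were tested with SciPy 1.17.1. Alternatives were other scalings and filters, DESeq2 1.42.0, limma 3.58.1 (voom, and log2(FPKM + 1) or log2(FPKM + 0.1)), length and GC offsets fitted with mgcv, a replicate block and left-out libraries. Named genes are all members, up to 4 called genes of each other list, or the 2 most abundant where none was called, and a few given for comparison. Members, lists and tests were chosen with earlier results of these data known.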

Additional observations from a re-analysis of the deposited data

Results flagged for a closer look

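In 6 of 58 groups of 4 libraries examined, a single library stood apart by Dixon's criterion for 4 values, which chance meets in about 1 group in 20. Among the TCA cycle genes these were Idh3g at 64.5 CPM in treated library 4 and Suclg1 at 168 CPM in control 2, the lowest control. Among the other genes Mcee stood at 54.0 CPM in treated library 3 and Dhtkd1 at 192 CPM in treated library 4. Pdhb stood at 224 CPM in control 4 and at 99.9 CPM in treated library 4. The cause of these values was not tested.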

How the results depend on the processing

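The number of genes called over the whole table, 1184, was 2215 with DESeq2, 2126 with limma-voom, 480 with limma on log2(FPKM + 1) without a filter, 580 with the length and GC correction, 547 with the replicate block together with that correction, and 183 (without treated library 3) to 2330 (without control 4) with 1 library left out. It was 944 with the replicate block alone. Of the 9 TCA cycle genes, 0 were called higher with all libraries, against 2 with DESeq2, 2 with limma-voom, 1 (Suclg1, adjusted p = 0.0471) with the block and correction together, where 2.95% of all genes were called higher, and 0 to 2 with 1 library left out. None was called lower in any setting run. Of 198 fold changes of members under alternatives, 175 kept their direction and side of the threshold, 7 passed it and 16 turned direction, all in Ogdh, Idh3a, Idh3g and Fh1, whose values lie near 0. Ogdh turned to -0.035 with library size alone, 0.00 (-0.003) with upper quartile factors, -0.018 in each of the 3 fits on FPKM and -0.044 without controls 2 and 4, and Idh3a to 0.013 with the correction and 0.01 with the replicate block added. With 1 library left out Ogdh ran from -0.064 to 0.13, Idh3a from -0.18 to 0.009, Idh3g from -0.026 to 0.22 and Fh1 from -0.29 to 0.13. The causes were not tested. Deviations of same-numbered libraries correlated over 0.1 in 1 of 4 pairs (0.18, 0.06, -0.01 and 0.07), so the numbers were not taken as a pairing, and the replicate block called 0 members. With 1 library left out, the differences of the 5 subunit ratios kept their sign, and the log2 difference ran from -0.407 to -0.052 for Idh3a/Idh3g, -0.78 to -0.454 for Idh3a/Idh3b, 0.367 to 0.486 for Idh3b/Idh3g, 0.143 to 0.36 for Suclg1/Suclg2 and 0.051 to 0.223 for Suclg2/Sucla2. With 4 libraries per group a paired exact test cannot go below 0.125.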
